A study of Mus musculus with 8 samples.

Results

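H3K27me3 peaks on mouse chromosome 12 were described in 5 chromatin immunoprecipitation libraries. The members were all peaks that the deposited lists place on chromosome 12, and there were 8393 of them among the 208616 peaks of the series (4.02%). AstroEGFR 1 held 1505 of these, AstroEGFR 3 held 511, and PT 1, PT 3 and PT 4 held 2595, 1364 and 2418. The chromosome was selected on a measured value, its share of the AstroEGFR 3 peaks, so the contrast of chromosome 12 with the other autosomes in that library, and every measure that follows from it, is given as a description with no test.

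The AstroEGFR libraries (replicates 1 and 3) came from cortical astrocytes of C57BL/6 mice at postnatal day 5, knocked out for p16/p19 (the Ink4a/Arf locus) and infected with a retrovirus for human EGFRvIII, a constitutively active EGF receptor. The PT libraries (replicates 1, 3 and 4) came from glioma propagating cells of tumours that C57BL/6 cells of this kind had formed in CD1 Nude mice, an immunodeficient host, so both groups share the knockout and the receptor. All were cultures below passage 10, and the labels do not say which astrocyte batch or animal lies behind each PT library. The cell types could not be checked against marker genes in peak lists of a repressive mark. A further 3 input libraries were not analysed here.

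H3K27me3 is written by Polycomb repressive complex 2, whose catalytic subunit is EZH2 or EZH1, and it is read as a sign of reversible gene silencing. In neural cells the mark lies over silent developmental regulators, often in domains that a peak caller splits into several peaks, while long gene-poor stretches carry little of it. Chromosome 12 holds developmental regulators, among them Nkx2-1, Nkx2-9, Pax9 and Foxa1 (neighbouring regulators of ventral and endodermal fates). It also holds Mycn and the imprinted genes Dlk1, Meg3, Rtl1 and Dio3. The RefSeq gene table used here follows GRCm38, whereas the peaks are on mm9, so no gene was placed at a peak and no sequence is shown. Positions below are those of the lists.

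The lists held from 3722 (AstroEGFR 3) to 66279 (PT 4) peaks, and the number of reads behind them is unknown. A region without a peak is one that did not reach the threshold of that list. AstroEGFR 1, PT 1 and PT 4 held from 179 to 236 peaks on unplaced sequences and AstroEGFR 3 and PT 3 held 0, a difference in processing or content that crosses the groups. Values are therefore also given within these sets of lists.

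Chromosome 12 was the most densely marked autosome in AstroEGFR 3 and an average or sparse one elsewhere. It spanned 4.89% of the 19 autosomes, counting each up to its last peak. It held 14.0% of the autosomal peaks of AstroEGFR 3 (Wilson 95% CI 12.9 to 15.2), against 4.45% (CI 4.24 to 4.68) in AstroEGFR 1. PT 1 stood at 4.05% (CI 3.90 to 4.21), PT 3 at 3.41% (CI 3.24 to 3.59) and PT 4 at 3.68% (CI 3.53 to 3.82). Intervals here cover counting error only, and neighbouring peaks are not independent. The AstroEGFR 3 share stood above the other 4, which lay between 3.41% and 4.45%, and PT 3, the other list without unplaced peaks, had the lowest.

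The density was 4.24 peaks per Mb on chromosome 12 and 1.33 on the other autosomes in AstroEGFR 3, so that 511 peaks stood where the other autosomes would have given 161, an excess of 350.1 peaks or 3.18 times. In the other lists the same ratio was 0.907 (AstroEGFR 1), 0.822 (PT 1), 0.687 (PT 3) and 0.742 (PT 4), all below 1. Had AstroEGFR 3 put the same share of its peaks on chromosome 12 as another list did, it would have held between 124 (as in PT 3) and 162 (as in AstroEGFR 1). Ranked by peak share over span share, chromosome 12 came first of 19 in AstroEGFR 3 (ratio 2.87, the next being chromosome 11 at 1.76). It had rank 10 in AstroEGFR 1 (0.911), and PT 1, PT 3 and PT 4 placed it at ranks 13 (0.829), 15 (0.697) and 14 (0.752). A ratio of this size was not particular to chromosome 12 and AstroEGFR 3. Chromosome 10 had the highest ratio in PT 3 (2.88), AstroEGFR 1 (2.26) and PT 1 (1.80). In PT 4 the highest was chromosome 11 (1.76).

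The chromosome is poor in genes for its length, with 679 protein-coding genes in the RefSeq table, 3.29% of those on autosomes. Per gene it was above average in every list. The ratio of peak share to gene share was 4.27 in AstroEGFR 3, and 1.36, 1.23, 1.04 and 1.12 in AstroEGFR 1, PT 1, PT 3 and PT 4, where chromosome 12 had ranks 2, 4, 4 and 6. In AstroEGFR 3 no other autosome exceeded 1.17 on this scale.

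**Figure D1:**
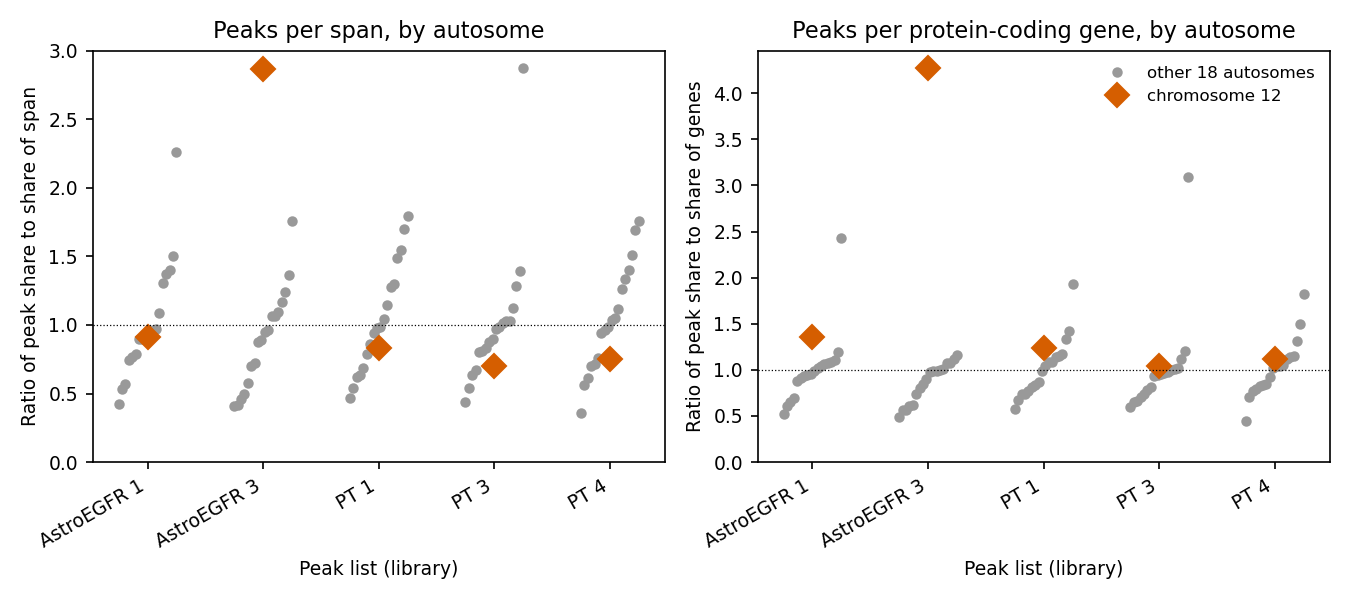
Peak share of each autosome divided by its share of the span (left) or of the protein-coding genes (right), in each of the 5 lists. Diamonds are chromosome 12 and grey points the other 18 autosomes, sorted within a list; the AstroEGFR 3 diamond stands at 2.87 and 4.27, above all grey points of that list, and the other diamonds lie among the grey points.

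The excess was also present in base pairs and among strong peaks. Peaks covered 0.460 Mb of chromosome 12 in AstroEGFR 3, or 13.8% of what that list covered on autosomes, while AstroEGFR 1 covered 2.25 Mb (4.53%), PT 1 covered 3.25 Mb (3.72%), PT 3 covered 1.25 Mb (3.21%) and PT 4 covered 2.90 Mb (3.45%). When each list was divided by score into 4 classes of equal size, chromosome 12 held 12.6% of the weakest class of AstroEGFR 3 (CI 10.6 to 14.9), 13.4% and 15.5% of the middle classes and 14.7% of the strongest (CI 12.5 to 17.2). In all 3 PT lists the strongest class had a lower share (3.73%, 3.22% and 3.23% for PT 1, 3 and 4) than the weakest (4.21%, 3.73% and 3.83%), and AstroEGFR 1 was level (4.44% and 4.39%). When every list was limited to its 3722 strongest peaks, AstroEGFR 1 had a share of 4.94% (CI 4.29 to 5.69), and PT 1, PT 3 and PT 4 had 3.38%, 2.86% and 3.49%, so at this equal length the other lists also stayed below AstroEGFR 3.

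The excess in AstroEGFR 3 was largest in the distal part of the chromosome and followed the places that the other lists also marked. Against 350.1 for the whole chromosome, the excess was 111.7 peaks in chr12:80000001-90000000, 54.7 in chr12:100000001-110000000 and 97.7 in chr12:110000001-120000000. AstroEGFR 3 fell below expectation in chr12:40000001-50000000, chr12:60000001-70000000 and chr12:90000001-100000000. The remaining segments stood above expectation by 2.1 to 37.7 peaks. Of 121 bins of 1 Mb, 26 held no peak in any list, and AstroEGFR 3 had peaks in 74, whereas AstroEGFR 1 had them in 79, PT 1 and PT 4 in 85 each and PT 3 in 86. This is 61.2% of the bins for AstroEGFR 3 on chromosome 12, against 36.4% on the other autosomes, whereas the other lists occupied from 65.3% to 71.1% on chromosome 12 and from 69.3% to 78.4% elsewhere. Every bin with an AstroEGFR 3 peak held a peak of another list, and 68 of the 74 (91.9%) held peaks of all 4, close to the 94.4% of its bins on the other autosomes. The longest stretches without a peak in any list were 3 Mb each, at chr12:22000001-25000000, chr12:49000001-52000000 and chr12:63000001-66000000, besides the first 3 Mb of the chromosome.

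A bin was counted as in excess when it held at least 3 peaks of AstroEGFR 3 and its share of that list was at least 2 times its share of each other list. On chromosome 12 there were 38 such bins (31.4%), and over all autosomes 4.08% of bins met the rule. These 38 bins held 413 of the 511 AstroEGFR 3 peaks (80.8%). The AstroEGFR 3 share was above that of each other list in 63 bins of chromosome 12, or 85.1% of the bins it occupied there, against 39.8% of those it occupied on the other autosomes; over all autosomes 16.3% of all bins were of this kind.

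The excess bins formed 18 runs. The longest were 7 bins each. The run chr12:82000001-89000000 held 247 AstroEGFR 1, 120 AstroEGFR 3, 491 PT 1, 202 PT 3 and 446 PT 4 peaks, and this was 23.5% of the chromosome 12 peaks of AstroEGFR 3 against 14.8% to 18.9% of those of the others. The run chr12:108000001-115000000 held 210, 116, 299, 248 and 337 peaks in the same order, which was 22.7% for AstroEGFR 3, 18.2% for PT 3 and 11.5% to 14.0% for the remaining lists. Both runs were thus also rich in peaks in the other lists. Outside them AstroEGFR 3 still held 275 peaks, 2.58 per Mb or 1.93 times its density on the other autosomes, where the other lists stood at 0.520 to 0.714 times theirs.

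The bin with most peaks, chr12:113000001-114000000, was the same in all 5 lists. It held 110 AstroEGFR 1, 65 AstroEGFR 3, 145 PT 1, 153 PT 3 and 169 PT 4 peaks. In AstroEGFR 3 this was 1.78% of the autosomal peaks, and the densest bin of all autosomes, whereas in the other lists bins elsewhere held from 135 to 269 peaks. The second, chr12:87000001-88000000, held 64, 42, 129, 50 and 143 peaks in that order of libraries, and the third, chr12:74000001-75000000, held 96, 21, 107, 45 and 104. The neighbours of the second, chr12:88000001-89000000 and chr12:86000001-87000000, came next with 18 and 17 AstroEGFR 3 peaks. These 5 bins held 31.9% of the AstroEGFR 3 peaks of the chromosome. The 5 densest bins of each other list held 22.8% to 27.2%, so the AstroEGFR 3 peaks were somewhat more gathered. Without its 10 densest bins AstroEGFR 3 remained at 1.90 times its density on the other autosomes.

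In segments of 10 Mb the AstroEGFR 3 share was compared with the mean share of the other 4 lists. Of the 12 segments of chromosome 12 with at least 50 peaks in those lists together, 10 had a ratio above 2 and the median was 2.92. On the other autosomes 12 of 233 such segments (5.15%) passed 2, and the median was 0.694. The highest ratios on chromosome 12 were 5.76 in chr12:100000001-110000000 (68 AstroEGFR 3 peaks), 5.04 in chr12:110000001-120000000 (111 peaks) and 4.40 in chr12:80000001-90000000 (125 peaks). The lowest, 0.890 in chr12:90000001-100000000 and 1.38 in chr12:40000001-50000000, rested on 2 AstroEGFR 3 peaks each. The first 80 Mb gave ratios from 2.12 to 3.45 wherever AstroEGFR 3 had more than 2 peaks, so the distal part stood higher than the rest and the rest was not at the level of other chromosomes.

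**Figure D2:**
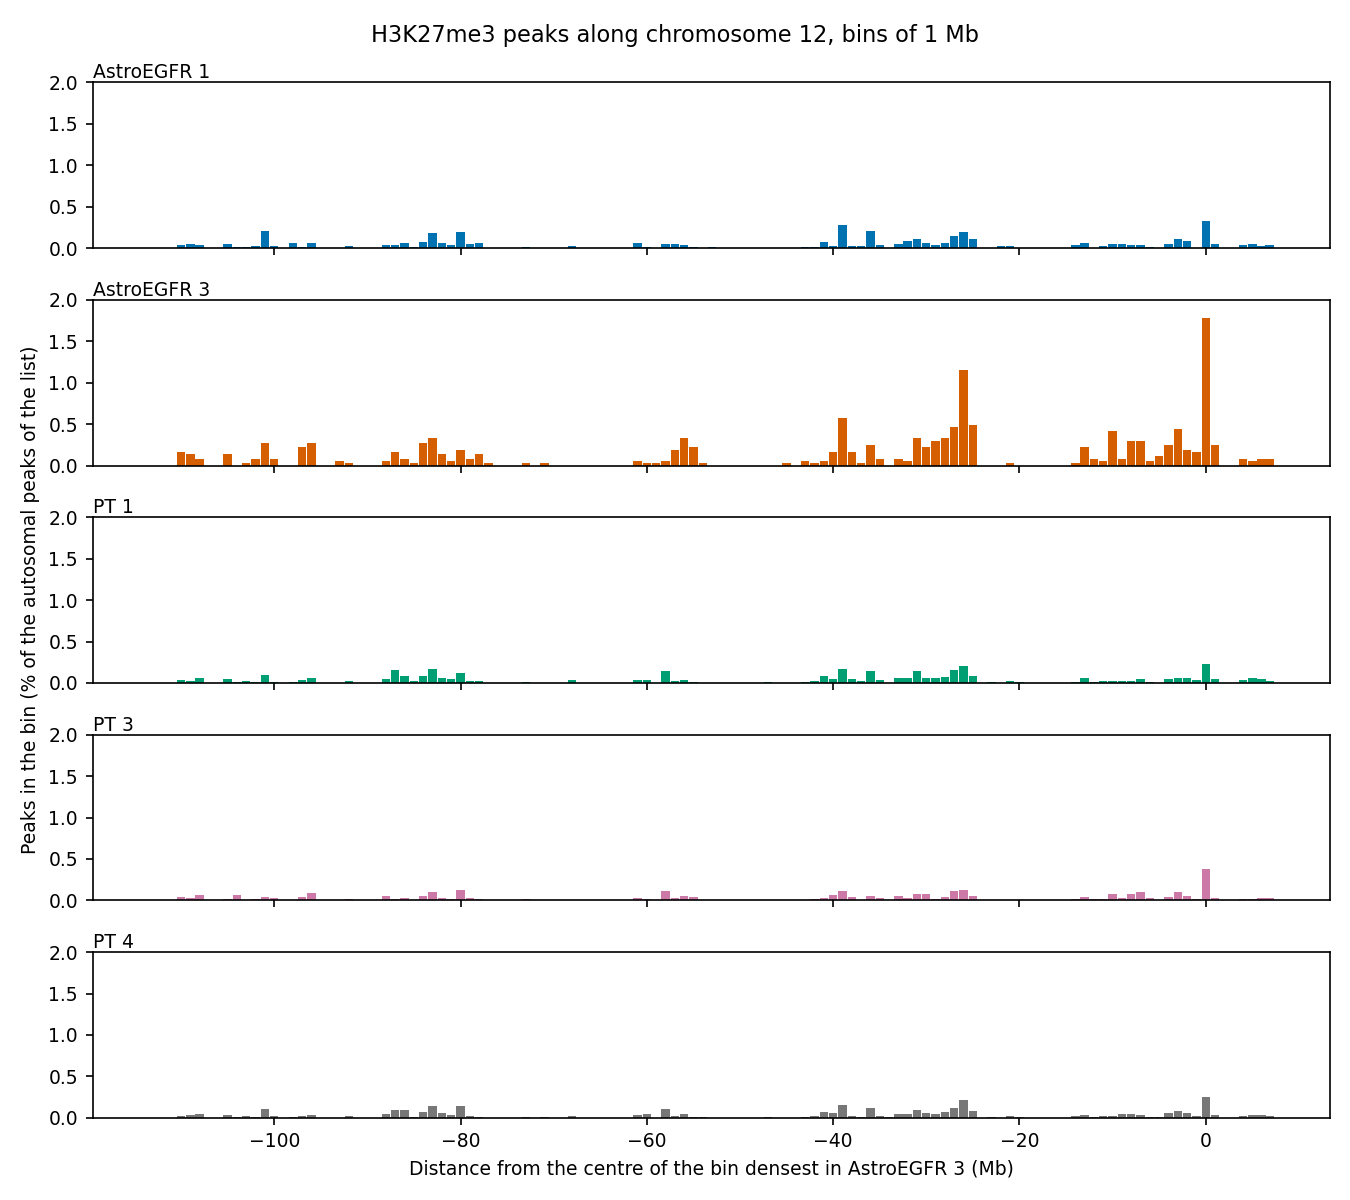
Peaks in bins of 1 Mb along chromosome 12, as a percentage of the autosomal peaks of each list (vertical axis, the same in all panels), against distance in Mb from the centre of the bin densest in AstroEGFR 3. Peaks and gaps fall at the same distances in the 5 panels, and the AstroEGFR 3 bars are the tallest at most of them, with 1.78% at distance 0.

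Across the 95 bins with a peak in any list, the counts of pairs of lists had Pearson's r from 0.733 (AstroEGFR 3 with PT 1) to 0.960 (PT 1 with PT 4). AstroEGFR 3 was closest to PT 3 (r = 0.874, Spearman's rho = 0.823). These are descriptions over bins that share base composition and gene content and are not independent.

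AstroEGFR 3 peaks on chromosome 12 scored slightly higher than its peaks elsewhere, and those of the other lists slightly lower. As percentiles within a list, the median score on chromosome 12 was 49.5 (AstroEGFR 1), 52.9 (AstroEGFR 3), 47.3 (PT 1), 46.7 (PT 3) and 48.1 (PT 4). On the other autosomes the medians were 49.9, 48.5, 50.1, 50.1 and 50.04. The AstroEGFR 3 median was the second highest among its 19 autosomes, and PT 3 stood at rank 16 of its own. Of the chromosome 12 peaks, 10.6% (CI 8.19 to 13.5) in AstroEGFR 3 and 11.1% (CI 9.61 to 12.8) in AstroEGFR 1 were in the top 10% of their list, against 8.29% (CI 7.29 to 9.41) for PT 1, 8.36% (CI 7.003 to 9.95) for PT 3 and 8.81% (CI 7.74 to 10.005) for PT 4. The highest AstroEGFR 3 score on chromosome 12 was nevertheless 943, against 2979 in PT 3 and 3100 or more in the other 3 lists. A score of 3100 or more was found in 0 of its 511 peaks there and in 17 (0.543%) of its peaks on the other autosomes.

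Widths on chromosome 12 were close to those elsewhere. The medians of AstroEGFR 1 and 3 were 1025 and 782 bp and those of PT 1, 3 and 4 were 775, 671 and 774.5 bp, against 1031, 761, 810.0, 684 and 793 bp on the other autosomes. AstroEGFR 3 was thus the one list with a higher median on chromosome 12, by 21 bp. Peaks of 10 kb or more were rare in that list everywhere, with 0 on chromosome 12 and 5 of 3131 (0.160%) on the other autosomes. The widest AstroEGFR 3 peak on the chromosome, chr12:85909941-85913644, spanned 3704 bp, whereas its widest peak on another autosome spanned 31931 bp. The widest of all was an AstroEGFR 1 peak of 25465 bp at chr12:33769489-33794953, next to another of 20698 bp at chr12:33747397-33768094. PT 1 and PT 4 had their widest peaks at the same place near the end of the chromosome, 24339 bp at chr12:120069127-120093465 and 21511 bp at chr12:120071989-120093499, and the widest PT 3 peak, 9388 bp at chr12:120073340-120082727, lay inside both. A PT 4 peak at chr12:113342417-113363176 spanned 20760 bp. AstroEGFR 1 had 8 peaks of 10 kb or more (0.532%, against 0.458% on the other autosomes). PT 1 and PT 4 had 10 each (0.385% and 0.414%, against 0.689% and 0.549%). AstroEGFR 3 and PT 3 had 0, against 0.160% and 0.109%.

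**Figure D3:**
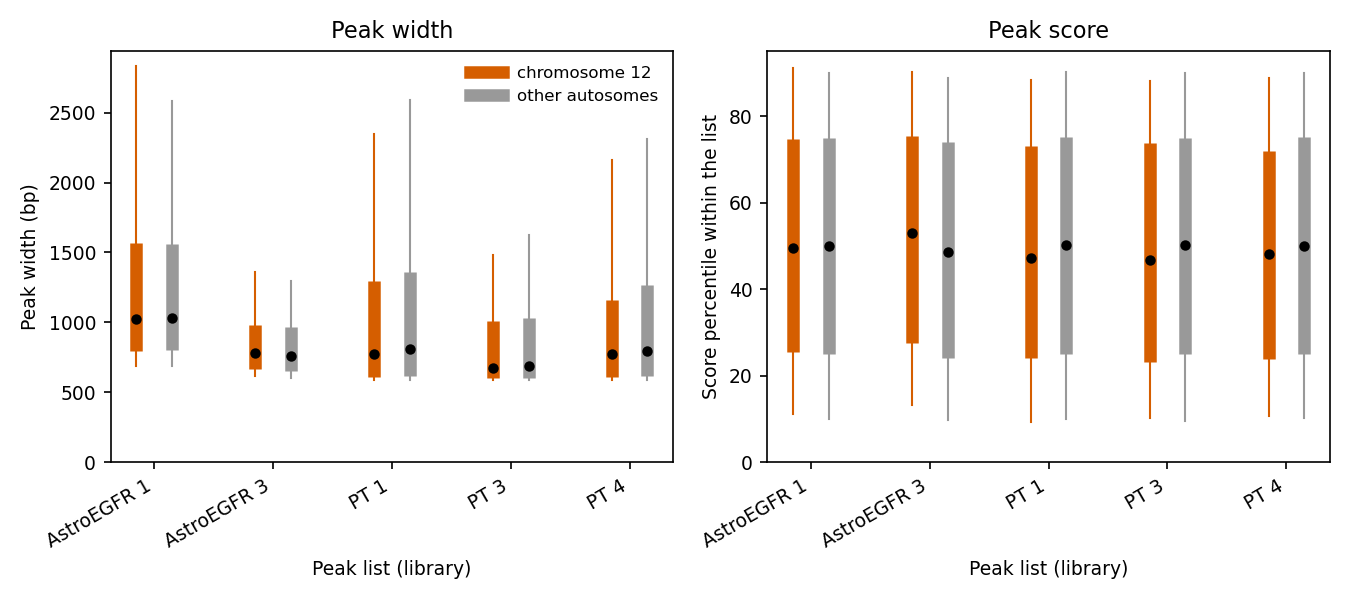
Peak width in bp (left) and score percentile within the list (right) for peaks on chromosome 12 and on the other autosomes, in each of the 5 lists. Points are medians, thick bars the middle 50% of peaks and thin lines the range from the lowest 10% to the highest 10%; AstroEGFR 3 has the one chromosome 12 median above its neighbour in both panels, 782 bp and percentile 52.9.

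Most AstroEGFR 3 peaks on chromosome 12 lay where another library was also marked, though less often than its peaks elsewhere. Of the 511 peaks, 386 (75.5%, CI 71.6 to 79.1) overlapped a peak of another list, against 88.4% (CI 87.3 to 89.5) of its 3131 peaks on the other autosomes. By list, 39.1% were overlapped by AstroEGFR 1, 54.6% by PT 1, 46.6% by PT 3 and 54.4% by PT 4, against 57.0%, 71.6%, 70.4% and 72.5% elsewhere. AstroEGFR 1 and PT 1 also had lower shares on chromosome 12 (75.3% against 81.4% and 72.3% against 73.8%), whereas PT 3 and PT 4 had higher shares (66.8% against 61.1% and 78.1% against 73.1%). The 125 AstroEGFR 3 peaks that no other list overlapped had a median width of 705 bp and a median percentile of 38.1, against 814 bp and 58.1 for the shared ones. Of these 125 peaks, 66 (52.8%) lay within 5 kb of a peak of another list, at a median distance of 4487 bp. The 362 such peaks on the other autosomes lay closer, with 64.1% within 5 kb and a median of 2406 bp. On chromosome 12 the 125 peaks made up 21.7% and 18.1% of the AstroEGFR 3 peaks in the proximal and distal long runs and 28.4% outside them.

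Merging the 5 lists gave 3922 regions on chromosome 12 and 95023 on the other autosomes. On chromosome 12, 2197 regions (56.0%) were marked in a single list, against 57.3% over all autosomes, and 108 in all 5, which is 2.75%; over all autosomes 1.32% of regions were marked in all 5. AstroEGFR 3 alone marked 125 regions (3.19%), against 0.492% over all autosomes. AstroEGFR 3 and PT 3 alone shared 52 regions (1.33%), against 0.273% on the other autosomes. The classes of all 5 lists, of AstroEGFR 3 alone and of AstroEGFR 3 with PT 3 need an AstroEGFR 3 peak, so they restate the excess. In the 108 regions marked in all 5, the best AstroEGFR 3 peak had a median percentile of 77.4, against 61.9 in the 1195 such regions on the other autosomes, while in AstroEGFR 1, PT 1, PT 3 and PT 4 the chromosome 12 median was lower than elsewhere (88.9 against 90.9, 93.3 against 96.6, 88.8 against 93.8 and 94.7 against 97.4). AstroEGFR 3 peaks covered a median of 1259 bp of such a region on chromosome 12 and 915 bp elsewhere; for PT 1 these medians were 4994.5 and 6264 bp.

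AstroEGFR 3 also marked more of the regions that all PT lists marked on this chromosome. A higher share follows from its higher number of peaks there, so these values restate the excess and are no separate support for it. Of 399 regions on chromosome 12 marked in all 3 PT lists, 131 (32.8%) had a peak in AstroEGFR 3, against 13.1% on the other autosomes together and from 5.20% to 19.1% on each of them. AstroEGFR 1 had a peak in 263 (65.9%), against 63.9% elsewhere, rank 8 of 19. The regions of all autosomes were then put into 4 classes of equal size by their lowest score percentile over the 3 PT lists. AstroEGFR 3 marked 10.6% of the chromosome 12 regions in the weakest class (CI 6.18 to 17.6), 24.8% (CI 17.5 to 33.8) and 36.0% (CI 26.8 to 46.3) in the next, and 66.3% (CI 56.2 to 75.1) in the strongest. On the other autosomes it marked 3.65%, 5.57%, 9.87% and 33.3%, and no single one of them passed 6.94%, 9.38%, 16.6% and 46.6%. For AstroEGFR 1 the same classes gave 47.8%, 61.0%, 69.7% and 90.2% on chromosome 12 and 42.6%, 54.6%, 70.1% and 88.0% elsewhere. In the 9 segments of 10 Mb with at least 10 regions of all PT, AstroEGFR 3 marked from 13.3% (the first 10 Mb) to 43.9% (chr12:70000001-80000000) of them, so none of these segments fell below the figure for the other autosomes together.

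**Figure D4:**
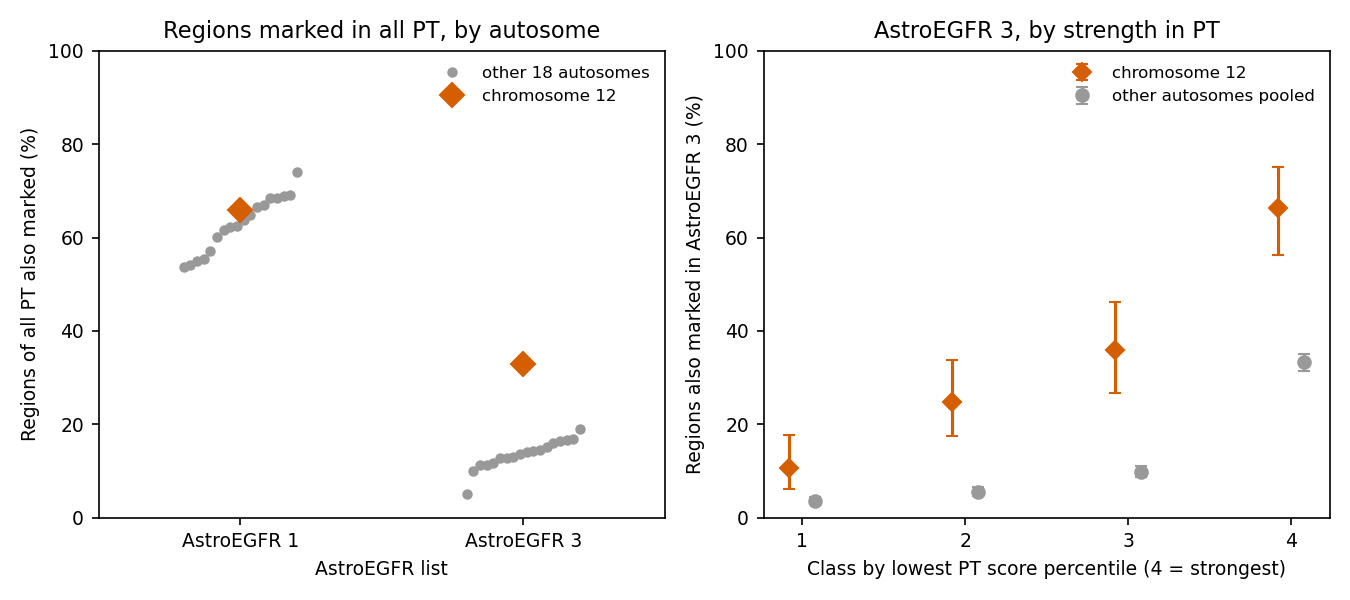
Left, percentage of the regions marked in all 3 PT lists that were also marked in AstroEGFR 1 or AstroEGFR 3, for chromosome 12 (diamonds) and the other 18 autosomes (grey points). Right, the same for AstroEGFR 3 in 4 classes by the lowest PT score percentile, with Wilson 95% intervals; chromosome 12 runs from 10.6% to 66.3% and the other autosomes together from 3.65% to 33.3%.

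The study asked whether the mark is redistributed between the tumorigenic astrocytes and the glioma propagating cells. Peaks per Mb of chromosome 12 were 12.5 and 4.24 in AstroEGFR 1 and 3, and 21.5, 11.3 and 20.04 in PT 1, 3 and 4. The groups overlapped, since PT 3 lay below AstroEGFR 1. The means were 17.6 ± 5.52 (SD, n = 3) in PT and 8.35 ± 5.83 (SD, n = 2) in AstroEGFR, a difference of 9.26. No p-value is given for it, since the AstroEGFR 3 count behind it chose the chromosome. Its permutation was run and enters only the adjustment over 3 measures given below. The difference was 7.07 between PT 3 and AstroEGFR 3 and 8.30 between the mean of PT 1 and PT 4 and AstroEGFR 1. When lists were cut to equal length, 3722 peaks each, the direction turned and the difference was -1.88 peaks per Mb.

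Chromosome 12 took a lower share of the peaks in PT (3.71 ± 0.325%, SD, n = 3) than in AstroEGFR (9.24 ± 6.77%, SD, n = 2). The difference was -5.53 percentage points with all libraries and -0.740 without AstroEGFR 3. No test is given, since this share chose the chromosome.

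Median peak width on chromosome 12 was lower in all 3 PT lists than in both AstroEGFR lists, with means of 740.2 ± 59.9 bp (SD, n = 3) and 903.5 ± 172 bp (SD, n = 2). The difference of -163 bp (PT minus AstroEGFR) had the smallest p this design allows (exact permutation test over the libraries, two-sided, p = 0.1, 0.15 after Benjamini-Hochberg adjustment over 3 measures, density included). The difference was -41.8 bp without AstroEGFR 1 and -285 bp without AstroEGFR 3, and -111 and -250.2 bp within the lists without and with unplaced peaks. AstroEGFR 3 stood 7 bp above PT 1, and on the other autosomes its median was below those of PT 1 and PT 4. The median score percentile on chromosome 12 was 47.4 ± 0.661 in PT (SD, n = 3) and 51.2 ± 2.39 in AstroEGFR (SD, n = 2), with no overlap between groups (exact permutation test, two-sided, p = 0.1, 0.15 after the same adjustment). On the other autosomes the medians were 49.9 and 48.5 in AstroEGFR 1 and 3 and 50.04 to 50.1 in PT. Percentiles are ranks within a list, and these autosomes hold most of each list. Their medians must therefore lie near the middle, and their opposite order is no separate result. The difference (PT minus AstroEGFR) of -3.83 points was -6.14 within the lists without unplaced peaks and -1.83 within those with them. It was -2.14 without AstroEGFR 3 and -1.06 among peaks with a score of at least 100. Neither comparison could reach 0.05 with 5 libraries. Both include the AstroEGFR 3 peaks whose excess chose the chromosome, so they do not support a difference between the groups.

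Acquired regions, which every PT list marked and no AstroEGFR list did, numbered 113 on chromosome 12, or 2.88% of its regions, and 3.78% of regions were of this kind over all autosomes. They were 28.3% of the regions marked in all PT, the second lowest share among the autosomes, whose range was 24.8% to 43.4%. The higher AstroEGFR 3 marking of this chromosome lowers that share by construction, and without AstroEGFR 3 the count rose to 136. Their median width was 1626 bp, and they lay a median of 4902 bp from an AstroEGFR peak, 57 of them (50.4%) within 5 kb. The AstroEGFR 3 excess can shorten these distances, and no value for the other autosomes is given beside them. Their best peaks had median percentiles of 59.7 (PT 1), 47.9 (PT 3) and 60.8 (PT 4).

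The acquired region that ranked highest in all PT lists was chr12:118624152-118627826, 3675 bp wide, with percentiles of 95.9, 88.4 and 94.7 in PT 1, PT 3 and PT 4, and 8755 bp from the nearest AstroEGFR peak. The second, chr12:110223348-110226233, reached percentile 97.2 in PT 3 and lay 53018 bp from an AstroEGFR peak, inside the distal run of AstroEGFR 3 excess. The third was chr12:55540426-55544344, 3919 bp wide with a lowest percentile of 84.8. The fourth, chr12:62624338-62626287, was the most isolated, with percentiles of 84.7, 90.3 and 91.7 and no AstroEGFR peak within 2256015 bp. The fifth was chr12:106768359-106771217, with a lowest percentile of 80.9.

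The third of these lay in the bin chr12:55000001-56000000, one of 3 bins of chromosome 12 whose share was higher in every PT list than in both AstroEGFR lists (2.48%, against 15.5% of bins over all autosomes). It held 18 AstroEGFR 1, 2 AstroEGFR 3, 94 PT 1, 47 PT 3 and 71 PT 4 peaks. The PT counts were all above those of the AstroEGFR lists, but the PT lists are also the longer ones. The AstroEGFR 3 share of 0.0549% was below those of the PT lists, which the choice of the bin requires, unlike in most bins of the chromosome. The other 2 such bins, chr12:38000001-39000000 and chr12:62000001-63000000, held 0 AstroEGFR peaks and at most 4 peaks in any PT list. In 22 bins (18.2%, against 6.9% over all autosomes) the share was lower in every PT list than in both AstroEGFR lists, and 12 of these were bins of AstroEGFR 3 excess. Both kinds of bin depend on the AstroEGFR 3 share. Its excess on this chromosome therefore lowers the count of bins higher in PT, and raises that of bins lower in PT, by construction.

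Regions marked in both AstroEGFR lists and in no PT list numbered 3 on chromosome 12 (0.0765% of its regions, against 0.0232% over all autosomes). Such regions need an AstroEGFR 3 peak, so their higher share also follows the excess. All 3 were narrow and weak in AstroEGFR 1. The first, chr12:85966226-85967113, spanned 888 bp with percentiles of 16.7 in AstroEGFR 1 and 57.5 in AstroEGFR 3. The second, chr12:86012141-86013289, stood at percentile 9.92 in AstroEGFR 1 and 86.4 in AstroEGFR 3, and the third, chr12:56631860-56632882, at 2.51 and 42.0. Each had a PT peak nearby, at 1810, 1231 and 868 bp.

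The regions marked most strongly in all 5 lists all lay in bins of AstroEGFR 3 excess, and 2 of the 5 named lay in the long runs. They were chosen partly by their AstroEGFR 3 peaks, and 80.8% of the AstroEGFR 3 peaks of the chromosome lay in such bins. Their place in these bins is therefore no separate result. The first, chr12:3109317-3110657, was the first peak of the chromosome in AstroEGFR 3, PT 3 and PT 4, and stood at or above percentile 96.8 in every list. The second, chr12:8303290-8313541, was 10252 bp wide, and PT 1 and PT 4 each covered it with a single peak, of 10144 and 10224 bp, where AstroEGFR 1 had 3 peaks, PT 3 had 3 and AstroEGFR 3 had 4 that covered 5209 bp. The third, chr12:87758163-87769377, lay in the proximal run and had 4942 bp covered in AstroEGFR 3 and 11084 bp in PT 4. The fourth, chr12:113687983-113722631, was 34649 bp wide and lay in the densest bin. There AstroEGFR 1 had 11 peaks, AstroEGFR 3 had 5, PT 1 had 3, PT 3 had 14 and PT 4 had 3, covering 28044, 7176, 34016, 15216 and 34117 bp, so the same domain was split into fewer pieces and covered more fully in PT 1 and PT 4 than in the other lists. The fifth was chr12:31559136-31571373, with a lowest percentile of 95.4 in AstroEGFR 3.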

How the data were processed

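The series holds 5 H3K27me3 libraries with peak lists. The submitters' processing notes name Bowtie 0.12.9, MACS 1.4.1 and the build mm9; the input used for each library, the filters and the read depth are not given in the sources used here. The authors deposited a list per library, with start, end and score of each peak. The meaning of the deposited score is not stated; it was used only as a rank (percentile) within a list. Peaks below the calling threshold are not listed, so sequencing depth or antibody yield can alter how many peaks a list holds, and how wide they are.

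Counts and regions were computed in pandas 2.3.3 (Python 3.11.15) and intervals in scipy 1.17.1. Peaks were assigned to fixed bins of 1 Mb by their midpoint. Regions are peaks of the 5 lists merged where they overlapped or touched, marked in a list by at least 1 bp. Expected counts used peaks per Mb of the other 18 autosomes. Group means of density, width and score percentile were compared by exact permutation over all 10 ways to divide 5 libraries. The p-value is the share of these divisions with an absolute difference at least as large as that observed. The density result was used only in the adjustment. The functions recovered 100% of 6200 planted regions in simulated lists. The named bins and regions follow a rule: the 5 bins with most AstroEGFR 3 peaks above expectation and the longest runs of excess; the 5 acquired and 5 shared regions with the highest lowest percentile; all lost regions; the 5 widest peaks. The widest peak of AstroEGFR 3 and PT 3, the bins higher in PT and the 4 score classes were chosen after their values were seen. The chromosome, lists and tests were chosen with earlier results of these data known. Alternatives by score, number of peaks, bins, overlap, merging and omitted replicate were run.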

Additional observations from a re-analysis of the deposited data

How the results depend on the processing

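The share of AstroEGFR 3 peaks on chromosome 12 stayed within its interval under score filters, equal numbers and base pairs, and was 15.9% with chromosomes 10 and 11 left out. The ratio of its density to that of the other autosomes was 2.79, 2.26 and 1.90 without the 1, 5 and 10 densest bins and 4.80 per protein-coding gene (chosen after seeing the data). Excess bins numbered 21 with a score of at least 100, 24 with bins of 2 Mb and 24 at 3 times each other list, against 38; shared AstroEGFR 3 peaks fell to 68.3% when 50% of the peak had to overlap.

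The difference between groups in share ranged from -10.3 to -0.740 percentage points when libraries were left out, the extremes being without AstroEGFR 1 and without AstroEGFR 3, and was -0.587 and -10.6 within the lists with and without unplaced peaks (chosen after seeing the data). That in density was -1.88 peaks per Mb with equal numbers of strongest peaks. Width and score percentile kept their direction in each alternative run, but their size moved: width from -285 to -41.8 bp and percentile from -5.51 to -2.14 points when libraries were left out, -69.8 bp and -1.07 points with the upper 50% by score (exact permutation p 0.9 and 0.8) and -1.06 points with a score of at least 100 (exact permutation p 0.4).

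Acquired regions numbered 68 with a score of at least 100, 50 in the upper 50% by score and 1 with equal numbers, and from 136 to 612 when libraries were left out (278 without AstroEGFR 1, 183 without PT 1, 612 without PT 3). Lost regions numbered 1, 2 and 13 under the same 3 settings and from 4 to 375 when libraries were left out (375 without AstroEGFR 3, 130 without AstroEGFR 1, 9 without PT 1, 7 without PT 3). Each omission relaxes the definition.

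Numbers 1 and 3 occur in both groups, but the labels do not tie them to a shared batch. With the replicate block (PT 4 left out), the differences were -5.51 points in share, 8.05 peaks per Mb, -180.5 bp and -4.17 percentile points. Each kept its direction. Acquired and lost regions numbered 163 and 4, against 113 and 3 with all libraries. Unknown read depth limits every statement on a missing peak, most of all in AstroEGFR 3.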
